A study of Mus musculus with 40 samples.

Results

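The uninjured hemisphere of postnatal day 9 mouse pups that had received lipopolysaccharide (LPS) and then hypoxia-ischaemia (HI) was compared with the brain of pups early after LPS alone. The comparison held 10 of the 40 arrays of the series, chosen by their labels: 5 of the uninjured LPS/HI hemisphere and 5 of LPS. In the uninjured LPS/HI group, C57/Bl6 pups received vehicle, LPS 4 h later and HI 14 h after LPS, and the right hemisphere was taken 6 h after HI, so 20 h after LPS. In the LPS group, the C57/Bl6 brain was taken 6 h after LPS, and no vehicle dose is named. An arm with the immunomodulatory peptide IDR-1018 has the same comparison in other arrays: the uninjured LPS/HI hemisphere with the peptide in place of vehicle, against LPS with the peptide given 4 h before it. Pups given only vehicle (the Vehicle group) or only IDR-1018, both taken 10 h after the dose, are used for levels without LPS. The time since LPS (20 h against 6 h), the HI procedure, the vehicle dose and the tissue taken (1 hemisphere against brain) differ together between the groups and cannot be told apart. Each group had 5 arrays, and the labels do not say whether each came from a separate animal, so p-values measure the spread between these samples, which may be technical.

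LPS, a cell wall component of Gram-negative bacteria, is sensed through Toll-like receptor 4 and sets off NF-kB signalling and the release of cytokines and interferons. Interferons act through JAK and STAT proteins and interferon regulatory factors on genes that carry interferon-stimulated response elements or gamma-activated sites. In the brain, microglia are the main cells that sense such signals, and endothelium and astrocytes also respond. A systemic inflammatory stimulus also raises glucocorticoids, which act on their own set of target genes.

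Levels are log2 RMA signals, and a difference is the mean of the uninjured LPS/HI hemisphere minus the mean of LPS. Calls needed a limma p that stayed under 0.05 after Benjamini-Hochberg adjustment over all 19937 genes. Of these, 27 genes were called, 0.135% of all tested. The uninjured LPS/HI hemisphere was lower than LPS for 22 of them (0.11%) and higher for 5 (0.0251%). In all 27, every array of one group lay above every array of the other, which held for 239 of all genes tested (1.2%). The median difference over all genes was -0.01. The median 95% half-width of a difference was 0.174, which depends on the spread between arrays and on their number. In bulk tissue, fewer cells of a type and less RNA per cell cannot be told apart. The count was 15 without the uninjured LPS/HI replicate 4, 15 without the LPS replicate 2 and 15 without the LPS replicate 5.

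Correlations between arrays over all genes were 0.992 to 0.997 within groups and 0.991 to 0.997 across them, and no pair of arrays was identical. The first principal component (40.2% of the variance) ran within both groups, with uninjured LPS/HI replicates 3 and 5 and LPS replicates 1 and 5 at one end. Xist, the RNA of the silenced X chromosome, was high in 4 of 5 uninjured LPS/HI arrays and in 5 of 5 LPS arrays, and the remaining array, the uninjured LPS/HI replicate 4, had Y-linked signal instead. With the Xist level as a covariate, 13 genes were called. The tissue label was borne out by neuronal markers, whose mean level was 11.07 to 11.15 in the uninjured LPS/HI arrays and 11.06 to 11.13 in the LPS arrays. Neutrophil markers had mean levels of 5.34 to 5.45 in the uninjured LPS/HI arrays and 5.33 to 5.50 in the LPS arrays, and monocyte markers 5.72 to 5.89 and 5.63 to 5.86 in the same order of groups. None of the 14 marker lists had a called member in this comparison. Microglia markers had mean levels of 7.96 to 8.23 in the uninjured LPS/HI arrays and 7.81 to 8.09 in the LPS arrays, and 12 of 16 had a difference above 0. Endothelial markers had mean levels of 8.72 to 8.91 in the uninjured LPS/HI arrays and 8.33 to 8.75 in the LPS arrays, and 11 of 14 had a difference above 0. In the peptide arm, 2 of the 16 microglia markers and 3 of the 14 endothelial markers were called higher (beside 0.196% of all genes). There, 15 of the 16 and 12 of the 14 had a difference above 0. The part of these shifts in the results below was not tested.

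Among the genes called, the largest differences were those of interferon-inducible GTPases, which coat and break the vacuoles of intracellular microbes. Of the 7 measured members of a list of 14, 5 were called lower in the uninjured LPS/HI hemisphere and none higher. Of all genes, 0.11% were called lower. The median difference of the list was -1.10, beside -0.01 over all genes. Iigp1, a member of the immunity-related GTPase family, had 5.47, 5.18, 5.65, 5.30 and 5.37 in the uninjured LPS/HI arrays, against 7.54, 7.96, 6.97, 7.42 and 7.21 in the LPS arrays. The groups lay more than 1 unit apart at their closest arrays. Its means were 5.39 ± 0.18 in the uninjured LPS/HI hemisphere and 7.42 ± 0.37 in LPS (SD, n = 5 each), a difference of -2.03 ± 0.15 (SE), or 4.08-fold lower, at an adjusted p of 6.86e-05 in limma. Gbp4, a guanylate-binding protein, had 7.14, 5.90, 6.80, 6.26 and 6.29 in the uninjured LPS/HI arrays, against 8.14, 8.55, 7.96, 8.83 and 8.09 in the LPS arrays. Uninjured LPS/HI replicates 1 and 3 were the highest of their group and still below every LPS array. The difference was -1.84 ± 0.22, 3.58-fold lower (adjusted p 0.0023). Gbp5, a guanylate-binding protein that promotes inflammasome activation, had 5.01, 4.59, 5.12, 4.91 and 5.00 in the uninjured LPS/HI arrays, against 6.77, 6.82, 6.09, 6.77 and 6.44 in the LPS arrays. The groups were well apart, and the difference was -1.65 ± 0.14, 3.15-fold lower (adjusted p 0.000146).

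Irgm1, a regulator of the other immunity-related GTPases, was intermediate in the uninjured LPS/HI hemisphere. It had 8.09, 7.86, 8.08, 7.65 and 7.39 in the uninjured LPS/HI arrays, against 8.88, 9.29, 8.58, 9.00 and 8.81 in the LPS arrays, and the difference was -1.10 ± 0.15 (adjusted p 0.00703). Its Vehicle mean was 6.78 ± 0.08 (SD, n = 5), below every array of both other groups. Gbp9 had 6.71, 6.54, 6.75, 6.42 and 6.58 in the uninjured LPS/HI arrays, against 7.34, 7.81, 7.30, 7.75 and 7.61 in the LPS arrays, a difference of -0.96 ± 0.10 (adjusted p 0.00228). The last 2 measured members, named outside the rule to complete the list, did not pass the test in these arrays. Gbp7 had a difference of -0.72 ± 0.13 (adjusted p 0.0578), with the uninjured LPS/HI replicate 1 at 8.12 and the LPS replicate 5 also at 8.12. Gbp3 had a difference of -0.65 ± 0.14 (adjusted p 0.131), with no overlap between the groups. Its uninjured LPS/HI arrays, 6.69 to 7.36, also lay between the Vehicle arrays (6.34 to 6.61) and the LPS arrays (7.42 to 8.07). The guanylate-binding proteins are close paralogues, and probes of one may also capture another.

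The Vehicle group sets these levels against pups without LPS, in fits that share the uninjured LPS/HI or the LPS arrays with the comparison above. Xist was high in 2 of 5 Vehicle arrays, and 3 had Y-linked signal, beside 4 and 1 in the uninjured LPS/HI hemisphere and 5 and 0 in LPS. The part of this imbalance in the differences from Vehicle, here and below, was not tested. The uninjured LPS/HI hemisphere also differs from Vehicle in the HI procedure and in the time from dose to removal (24 h against 10 h). These cannot be told apart from LPS. Iigp1 was at 4.95 ± 0.19 in Vehicle (SD, n = 5). The uninjured LPS/HI hemisphere was 0.44 above Vehicle, which did not pass the test (adjusted p 0.119), and LPS was 2.47 above Vehicle (adjusted p 1.04e-06). For Gbp5 the difference from Vehicle was 0.34 in the uninjured LPS/HI hemisphere (adjusted p 0.194) and 2.00 in LPS (adjusted p 1.04e-06). Irgm1 was above Vehicle in both, by 1.03 in the uninjured LPS/HI hemisphere (adjusted p 0.00076) and by 2.13 in LPS (adjusted p 2.39e-07).

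**Figure D1:**
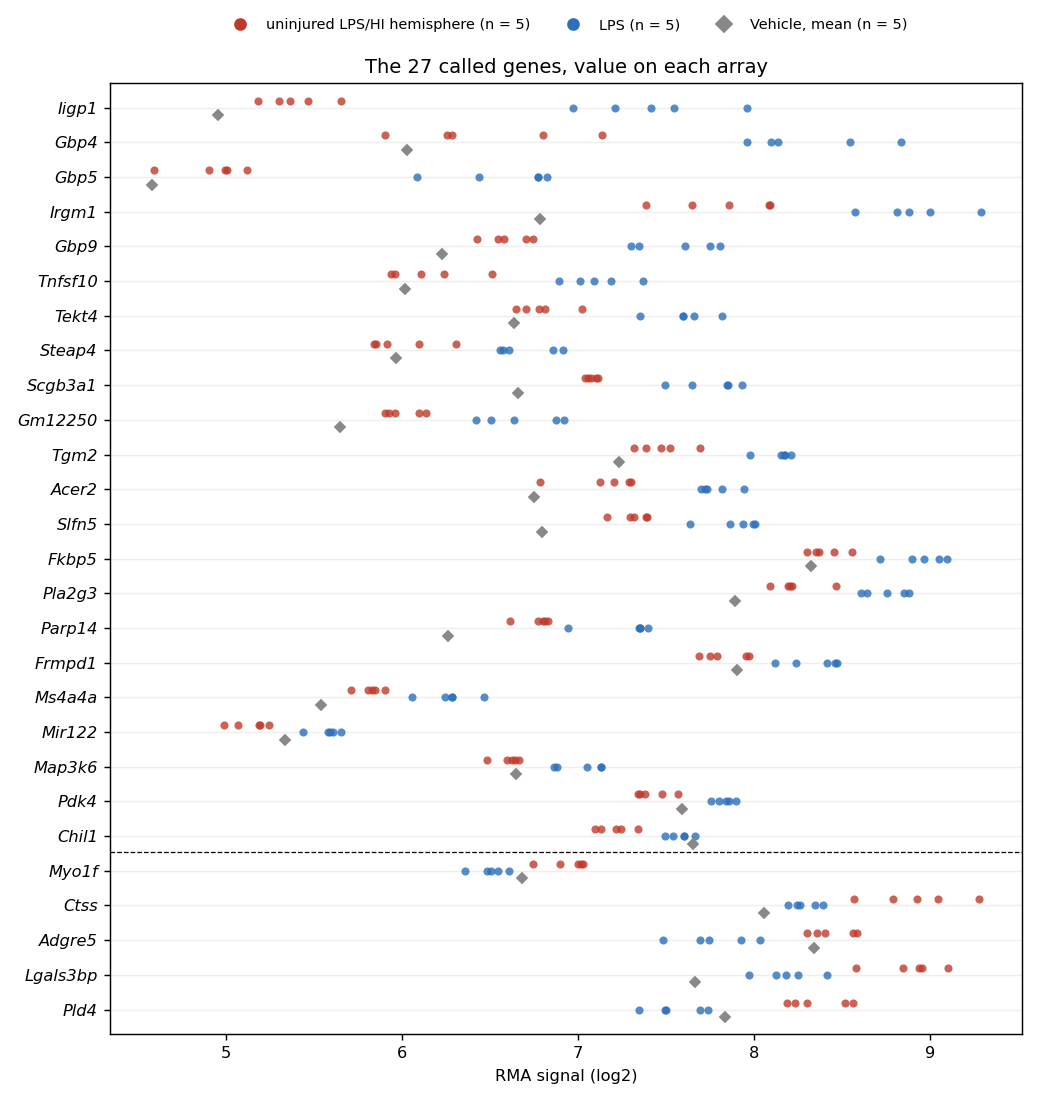
RMA signal (log2, x axis) of the 27 called genes (rows) on each array of the uninjured LPS/HI hemisphere (red) and of LPS (blue), with the Vehicle mean as a grey diamond (n = 5 arrays each). The 22 genes above the dashed line were lower in the uninjured LPS/HI hemisphere, and the 5 below it were higher, with no overlap between the 2 groups in any row.

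Promoters of called genes are shown because members of the interferon lists moved together. RefSeq promoter windows (GRCm38.p6) of 250 bases before to 50 after the start were searched on both strands for an interferon-stimulated response element, spelled TTTC, then 2 bases of any kind, then TTTC, and a gamma-activated site, spelled TTCNNNGAA. The response element letters were in 3.89% of the 15562 promoters of genes tested, and the activated site letters in 9.01%. Of the 15 genes called lower that had a promoter in the table, 4 held the response element and 4 the activated site (26.7% each). Of the 4 genes called higher that had one, 1 held the response element. All 4 interferon GTPases with a promoter in the table held the response element. A match is a description of letters and not of binding. The sequences below give the 250 bases before the start, 5' to 3', with the matches in capitals. Gbp5 and Irgm1 stand for the GTPases, and Slfn5 and Ctss, chosen after their values were seen, stand for a gene that fell and a gene that rose.
Gbp5 (chr3:142496684-142496933, plus strand): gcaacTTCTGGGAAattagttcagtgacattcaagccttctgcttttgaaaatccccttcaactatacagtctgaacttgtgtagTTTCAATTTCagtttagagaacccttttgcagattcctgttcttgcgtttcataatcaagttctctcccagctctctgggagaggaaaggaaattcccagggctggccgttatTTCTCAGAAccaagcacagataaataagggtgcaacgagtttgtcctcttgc
Irgm1 (chr11:48871421-48871670, minus strand): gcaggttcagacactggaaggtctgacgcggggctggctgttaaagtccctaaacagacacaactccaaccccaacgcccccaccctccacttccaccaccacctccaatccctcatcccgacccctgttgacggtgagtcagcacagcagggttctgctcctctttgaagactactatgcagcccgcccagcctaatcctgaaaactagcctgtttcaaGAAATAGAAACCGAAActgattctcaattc
Slfn5 (chr11:82951852-82952101, plus strand): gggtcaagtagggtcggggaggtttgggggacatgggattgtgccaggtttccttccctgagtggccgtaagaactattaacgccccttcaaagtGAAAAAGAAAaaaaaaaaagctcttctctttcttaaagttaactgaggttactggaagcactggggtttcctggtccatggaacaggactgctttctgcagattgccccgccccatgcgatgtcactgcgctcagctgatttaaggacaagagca
Ctss (chr3:95526536-95526785, plus strand): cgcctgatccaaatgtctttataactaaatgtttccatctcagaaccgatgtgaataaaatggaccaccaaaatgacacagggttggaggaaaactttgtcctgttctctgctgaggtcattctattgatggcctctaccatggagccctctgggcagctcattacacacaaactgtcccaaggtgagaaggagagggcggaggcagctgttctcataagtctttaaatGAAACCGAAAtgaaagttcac

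In Gbp5 the response element began 165 bases before the start, and activated sites began 245 and 52 bases before it. Irgm1 held a pair of overlapping response elements as the reverse complement of these letters, GAAATAGAAA and GAAACCGAAA, which began 30 and 24 bases before the start. Ctss, which rose, had the same GAAACCGAAA letters, 21 bases before its start.

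Antiviral interferon genes encode proteins that block viral RNA and protein synthesis. Of 26 measured members of a list of 28, 1 was called lower (beside 0.11% of all genes) and none higher. The median difference was -0.16, and 23 of the 26 had a difference below 0. The called member, Parp14, encodes an ADP-ribosyltransferase. Parp14 had 6.83, 6.77, 6.81, 6.80 and 6.61 in the uninjured LPS/HI arrays, against 7.35, 7.40, 6.94, 7.35 and 7.35 in the LPS arrays. The LPS replicate 3 was the low one of its group and lay just above the uninjured LPS/HI arrays. The difference was -0.51 ± 0.09 (adjusted p 0.0394), and its adjusted p ran up to 0.146 over the 18 alternatives that tested it. Members that did not pass, chosen after their values were seen, were Ifit3 and Ifit1, which bind viral RNA or block its translation, Oasl2 and Trim30a. Ifit3 had 7.32, 7.58, 7.51, 7.03 and 6.98 in the uninjured LPS/HI arrays, against 8.67, 8.24, 7.61, 8.12 and 8.11 in the LPS arrays, a difference of -0.87 ± 0.17 (adjusted p 0.0786). The difference was -0.56 ± 0.13 for Ifit1 (adjusted p 0.163). It was -0.37 ± 0.10 for Oasl2 (adjusted p 0.408). Trim30a had a difference of -0.31 ± 0.15 (adjusted p 1.00), and the uninjured LPS/HI arrays ran from 7.35 to 8.41.

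These antiviral genes stood well above Vehicle in both groups. The uninjured LPS/HI hemisphere was 1.24 above Vehicle for Oasl2 (adjusted p 8.06e-05), and LPS was 1.61 above it (adjusted p 2.39e-07). For Ifit1 it was 1.24 above Vehicle (adjusted p 0.00108), and LPS was 1.81 above it (adjusted p 5.72e-06). Of the 26 antiviral genes, 13 were called higher than Vehicle in the uninjured LPS/HI hemisphere (beside 0.411% of all genes) and 15 in LPS (beside 0.732% of all genes). Of the 7 GTPases, 2 were called higher than Vehicle in the uninjured LPS/HI hemisphere and 7 in LPS. In either direction, 0.436% of all genes were called between the uninjured LPS/HI hemisphere and Vehicle and 0.833% between LPS and Vehicle. The difference between the 2 lists was not tested.

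Other genes that fell and are known to be interferon-inducible were Slfn5, a Schlafen family member, and Tnfsf10, the death receptor ligand TRAIL. Slfn5 had 7.39, 7.39, 7.30, 7.32 and 7.17 in the uninjured LPS/HI arrays, against 8.00, 7.99, 7.64, 7.94 and 7.86 in the LPS arrays, a difference of -0.58 ± 0.08 (adjusted p 0.00855). Tnfsf10 had 6.51, 5.96, 5.94, 6.24 and 6.11 in the uninjured LPS/HI arrays, against 7.09, 7.19, 6.89, 7.37 and 7.01 in the LPS arrays, a difference of -0.96 ± 0.11 (adjusted p 0.0023). Both genes had clear gaps between the groups. Slfn5 was above Vehicle in the uninjured LPS/HI hemisphere, by 0.52 (adjusted p 0.00344), and Tnfsf10 was 0.13 above it (adjusted p 0.947). Gm12250, which has a clone name on the array, and Ms4a4a, a member of the membrane-spanning 4A family, also fell, with differences of -0.67 and -0.45. The adjusted p ran up to 0.0768 for Gm12250 and to 0.149 for Ms4a4a over the alternatives. These 2 genes lie outside the rule for naming genes, and they were picked after their values were seen.

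Several other lists of interferon and inflammatory genes held no called member. Among 15 interferon signalling factors, 11 genes of antigen processing and MHC class I, 25 cytokines and chemokines, 17 NF-kB subunits and targets and 13 gp130 and STAT3 genes, none was called in either direction. Lower with no overlap were 2 of the 15, 0 of the 11, 2 of the 25, 4 of the 17 and 2 of the 13, in that order. This held for 0.742% of all genes, and no member was higher with no overlap (0.456% of all genes). Irf7, a transcription factor that amplifies the interferon response, had 6.50, 6.86, 6.94, 6.60 and 6.88 in the uninjured LPS/HI arrays, against 7.51, 7.15, 6.95, 7.29 and 7.10 in the LPS arrays, a difference of -0.44 ± 0.11 (adjusted p 0.259). The highest uninjured LPS/HI array lay next to the lowest LPS array. Cxcl10, an interferon-induced chemokine, had 5.64, 5.58, 6.17, 5.55 and 5.86 in the uninjured LPS/HI arrays, against 7.79, 7.72, 6.14, 6.51 and 7.44 in the LPS arrays. The difference was -1.36 ± 0.28 (adjusted p 0.0965), with the LPS replicate 3 inside the range of the uninjured LPS/HI arrays. Cxcl11, a ligand of the same receptor, had a difference of -1.02 ± 0.25 (adjusted p 0.214), with an LPS replicate 1 value of 8.16 far above the other LPS arrays. Without the LPS replicate 3, Cxcl10 passed the test, and without the LPS replicate 1, Cxcl11 did.

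**Figure D2:**
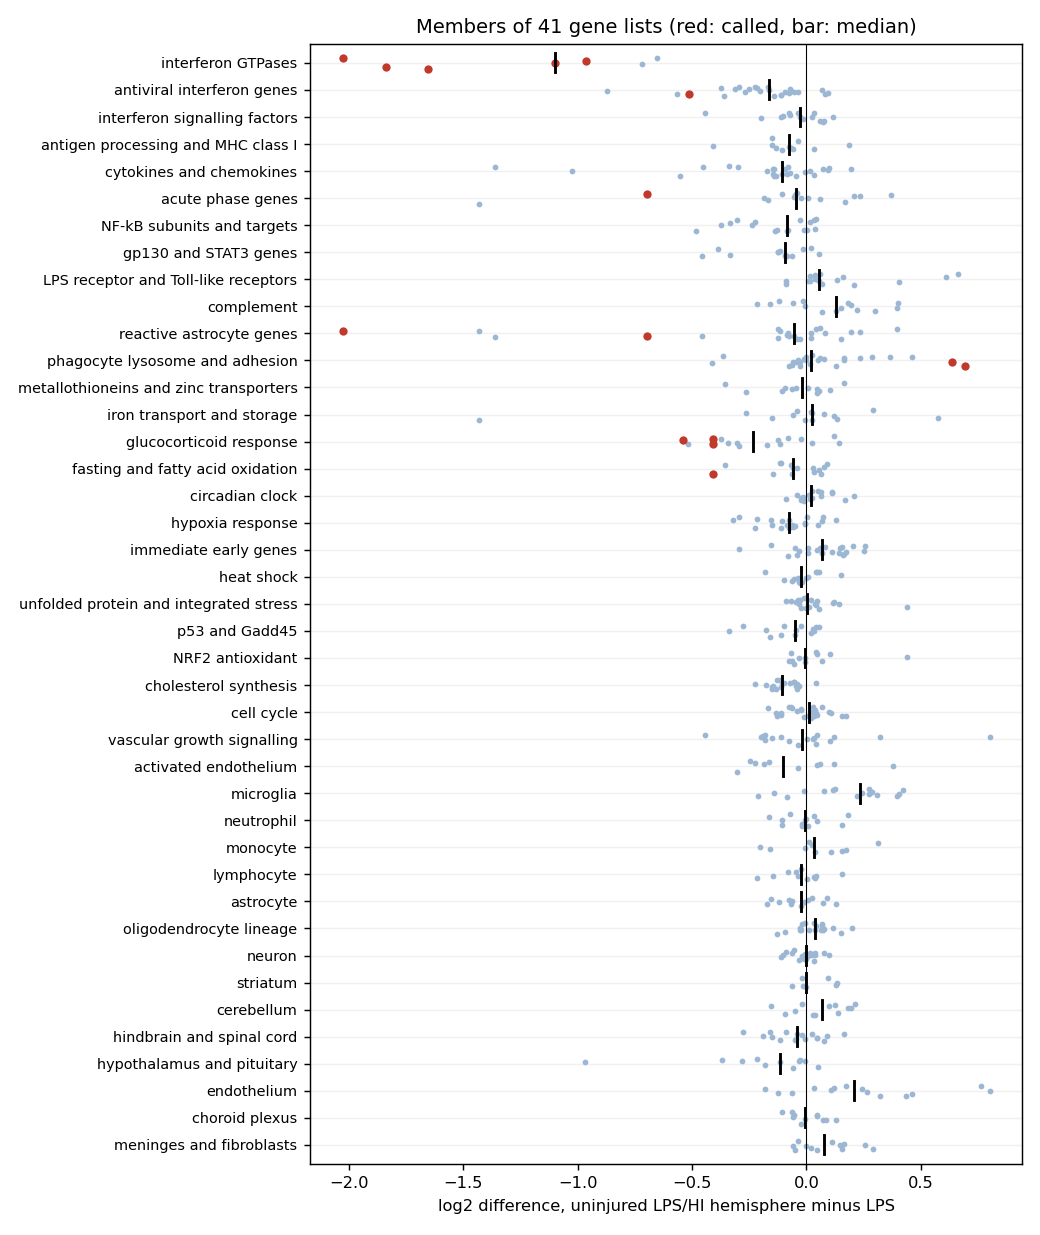
Difference (uninjured LPS/HI hemisphere minus LPS, log2, x axis) of each measured member of 41 gene lists (rows), with called members in red and the list median as a black bar. The 5 called interferon GTPases lie between -2.03 and -0.96, and 34 of the lists hold no called member.

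Acute phase genes were represented by Steap4, a metalloreductase, as the only called member of 16 (beside 0.11% of all genes called lower). Steap4 had 5.85, 5.84, 6.10, 5.92 and 6.31 in the uninjured LPS/HI arrays, against 6.91, 6.61, 6.57, 6.56 and 6.86 in the LPS arrays, a difference of -0.70 ± 0.10 (adjusted p 0.0141, up to 0.055 over the alternatives). Iigp1 and Steap4, both lower, were also the 2 called members of 23 reactive astrocyte genes, beside the same 0.11%. Lcn2, an iron-sequestering acute phase protein, had 8.23, 7.67, 9.77, 7.54 and 8.49 in the uninjured LPS/HI arrays, against 10.17, 10.03, 9.04, 9.23 and 10.36 in the LPS arrays. The uninjured LPS/HI replicate 3 lay among the LPS arrays, and the difference of -1.43 ± 0.37 did not pass the test (adjusted p 0.299). It passed without that array. Its Vehicle mean was 5.87 ± 0.20 (SD, n = 5), below every array of both groups.

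Glucocorticoid response genes included 3 called of 16 measured, all lower (beside 0.11% of all genes called lower). Their median difference was -0.23. Of the 16, 13 had a difference below 0, and 6 had no overlap between the groups, against 0.742% of all genes with no overlap in this direction. Fkbp5, a co-chaperone that restrains the glucocorticoid receptor, had 8.30, 8.56, 8.35, 8.45 and 8.37 in the uninjured LPS/HI arrays, against 8.96, 9.05, 8.89, 8.72 and 9.10 in the LPS arrays. The difference was -0.54 ± 0.08 (adjusted p 0.0141). The uninjured LPS/HI mean of 8.41 ± 0.10 was near the Vehicle mean of 8.32 ± 0.04 (SD, n = 5 each). Pdk4, a kinase that shuts off pyruvate dehydrogenase when fat is burned, had 7.34, 7.48, 7.35, 7.57 and 7.38 in the uninjured LPS/HI arrays, against 7.86, 7.84, 7.76, 7.90 and 7.80 in the LPS arrays. Its difference was -0.41 ± 0.06 (adjusted p 0.0201), and it was also the only called member of 15 genes of fasting and fatty acid oxidation. Map3k6, a stress-activated kinase, had 6.62, 6.49, 6.66, 6.64 and 6.60 in the uninjured LPS/HI arrays, against 7.13, 7.05, 6.88, 6.86 and 7.13 in the LPS arrays, a difference of -0.41 ± 0.07 (adjusted p 0.0449). The adjusted p ran up to 0.0716 for Fkbp5, 0.296 for Pdk4 and 0.159 for Map3k6 over the alternatives. Tsc22d3, a glucocorticoid-induced leucine zipper protein, and Zbtb16, a zinc finger transcription factor, had differences of -0.37 ± 0.07 and -0.52 ± 0.10 that did not pass (adjusted p 0.0694 each). Their groups did not overlap, and they were chosen after their values were seen.

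The remaining genes that fell share no list. Tekt4, a tektin of cilia and sperm tails, had 6.71, 6.78, 6.81, 6.65 and 7.02 in the uninjured LPS/HI arrays, against 7.82, 7.60, 7.66, 7.35 and 7.60 in the LPS arrays, a difference of -0.81 ± 0.09 (adjusted p 0.0023). Scgb3a1, a secreted protein of epithelia, had 7.04, 7.07, 7.10, 7.05 and 7.11 in the uninjured LPS/HI arrays, against 7.85, 7.93, 7.65, 7.49 and 7.85 in the LPS arrays. The uninjured LPS/HI arrays spread by less than 0.1, and the difference was -0.68 ± 0.08 (adjusted p 0.0023). Tgm2, a transglutaminase that crosslinks proteins, had 7.38, 7.32, 7.69, 7.47 and 7.53 in the uninjured LPS/HI arrays, against 8.21, 8.17, 7.97, 8.15 and 8.17 in the LPS arrays, a difference of -0.66 ± 0.08 (adjusted p 0.0023). Pla2g3, a secreted phospholipase, had a difference of -0.51 ± 0.08 (adjusted p 0.0216, up to 0.112 over the alternatives). Acer2, a Golgi ceramidase, had a difference of -0.64 ± 0.10 (adjusted p 0.0141), but another probe set of Acer2 had a difference of 0.06. With the mean of both probe sets the adjusted p was 0.174, the highest over the alternatives.

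Frmpd1, Mir122 and Chil1 lie outside the rule for naming genes and were picked after their values were seen. Frmpd1, which encodes a FERM and PDZ domain protein, had 7.69 to 7.97 in the uninjured LPS/HI arrays, against 8.12 to 8.47 in the LPS arrays. The probe set annotated to Mir122, the abundant microRNA of liver, had low signals of 4.99 to 5.24 in the uninjured LPS/HI arrays, against 5.44 to 5.65 in the LPS arrays. Chil1, a secreted chitinase-like protein, had 7.09 to 7.34 in the uninjured LPS/HI arrays, against 7.49 to 7.66 in the LPS arrays, and 7.51 to 8.05 in Vehicle. Chil1 and Mir122 were the called genes that fell and in which LPS did not pass the test against Vehicle, together with Pdk4 (adjusted p 0.95, 0.411 and 0.307). The adjusted p ran up to 0.125 for Frmpd1, 0.123 for Mir122 and 0.166 for Chil1 over the alternatives.

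Of the 5 genes that rose, Pld4, Ctss, Adgre5 and Myo1f are expressed by microglia, macrophages or other leukocytes in the textbook view. Pld4, a lysosomal nuclease of microglia and myeloid cells, had 8.56, 8.19, 8.23, 8.30 and 8.52 in the uninjured LPS/HI arrays, against 7.35, 7.49, 7.74, 7.69 and 7.50 in the LPS arrays. The difference was 0.81 ± 0.09, 1.75-fold higher (adjusted p 0.0023). Lgals3bp, a secreted glycoprotein that binds galectins, had 8.85, 8.94, 9.10, 8.95 and 8.58 in the uninjured LPS/HI arrays, against 8.41, 8.25, 7.97, 8.13 and 8.18 in the LPS arrays. Its difference was 0.69 ± 0.10, 1.62-fold higher (adjusted p 0.0141). Ctss, the lysosomal protease cathepsin S, had 9.27, 8.79, 8.57, 9.05 and 8.92 in the uninjured LPS/HI arrays, against 8.34, 8.19, 8.39, 8.24 and 8.26 in the LPS arrays. The LPS arrays were tight and the uninjured LPS/HI arrays spread more widely above them, and the difference was 0.63 ± 0.11 (adjusted p 0.0392). Lgals3bp and Ctss were the 2 called members of 26 genes of phagocyte lysosome and adhesion. Of all genes, 0.0251% were called higher, and the median difference of the 26 was 0.02.

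Adgre5, the leukocyte adhesion receptor CD97, had 8.40, 8.30, 8.58, 8.56 and 8.36 in the uninjured LPS/HI arrays, against 7.48, 7.70, 7.92, 8.04 and 7.74 in the LPS arrays, a difference of 0.67 ± 0.10 (adjusted p 0.0141). Myo1f, an unconventional myosin of immune cells, had 6.74 to 7.03 in the uninjured LPS/HI arrays, against 6.36 to 6.61 in the LPS arrays, a difference of 0.44 ± 0.07 (adjusted p 0.0348). Both genes were separated between the groups. Of the 5 genes that rose, Pld4 kept its call in each of 19 alternatives, while the adjusted p ran up to 0.0567 for Lgals3bp, 0.0742 for Adgre5, 0.146 for Ctss and 0.124 for Myo1f.

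Set beside Vehicle, in fits that share arrays with the comparison, the 5 genes are given by their group means. Lgals3bp averaged 7.66 in Vehicle, 8.19 in LPS and 8.88 in the uninjured LPS/HI hemisphere, and both were above Vehicle (adjusted p 0.00304 for LPS and 1.51e-05 for the uninjured LPS/HI hemisphere). Ctss averaged 8.06 in Vehicle, 8.29 in LPS and 8.92 in the uninjured LPS/HI hemisphere, with the test against Vehicle passed in the last of these only (adjusted p 0.00211, against 0.35 for LPS). Adgre5 averaged 8.34 in Vehicle, 7.78 in LPS and 8.44 in the uninjured LPS/HI hemisphere. Here LPS was below Vehicle by 0.57 (adjusted p 0.0058), and the uninjured LPS/HI hemisphere was 0.10 above it (adjusted p 0.923). Pld4 averaged 7.83 in Vehicle, 7.55 in LPS and 8.36 in the uninjured LPS/HI hemisphere, which was above Vehicle (adjusted p 0.0105). Myo1f averaged 6.68 in Vehicle, 6.50 in LPS and 6.94 in the uninjured LPS/HI hemisphere, and neither passed the test against Vehicle (adjusted p 0.443 for LPS and 0.269 for the uninjured LPS/HI hemisphere).

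**Figure D3:**
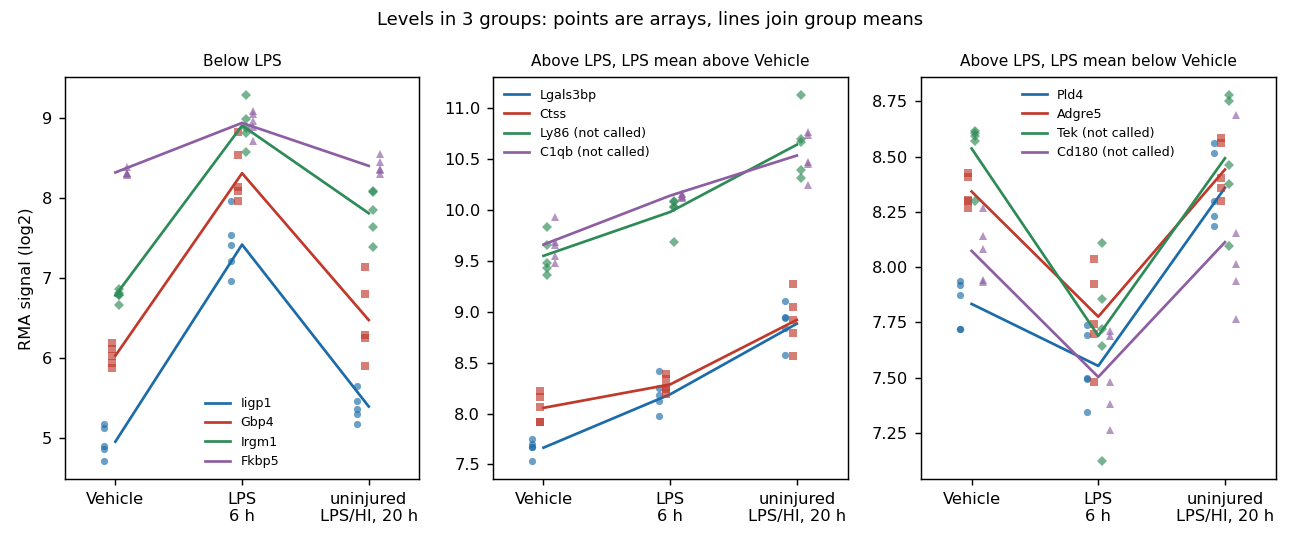
RMA signal (log2, y axis) on each array (points, n = 5 per group) in Vehicle, LPS at 6 h and the uninjured LPS/HI hemisphere at 20 h after LPS, with lines joining group means. Iigp1, Gbp4, Irgm1 and Fkbp5 were lower in the uninjured LPS/HI hemisphere than in LPS (left), Lgals3bp and Ctss were higher, with the LPS mean above the Vehicle mean (middle), and Pld4 and Adgre5 were higher, with the LPS mean below it (right). Genes marked as not called did not pass the test between the uninjured LPS/HI hemisphere and LPS.

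Several myeloid and vascular genes had differences above 0 of like size without passing the test, while other members of their lists were lower. Ly86, which pairs with the Toll-like receptor relative Cd180, had 11.13, 10.32, 10.40, 10.67 and 10.70 in the uninjured LPS/HI arrays, against 9.68, 10.08, 10.03, 10.03 and 10.09 in the LPS arrays. The groups did not overlap, and the difference was 0.66 ± 0.13 (adjusted p 0.0965). Cd180 itself had a difference of 0.61 ± 0.15 (adjusted p 0.211). C1qb, a subunit of the first complement component, had a difference of 0.39 ± 0.09 (adjusted p 0.175), again with no overlap. None of 17 genes of the LPS receptor and Toll-like receptors was called (median difference 0.06, 15 above 0 and 2 below). None of 15 complement genes was called either (median 0.13, 9 above 0 and 6 below). Tek, the angiopoietin receptor of endothelium, had 8.78, 8.46, 8.38, 8.75 and 8.09 in the uninjured LPS/HI arrays, against 7.12, 7.72, 7.86, 8.11 and 7.64 in the LPS arrays. The lowest uninjured LPS/HI array lay just under the highest LPS array, and the difference was 0.80 ± 0.17 (adjusted p 0.106). Abcb1a, the P-glycoprotein pump of the blood-brain barrier, had a difference of 0.46 ± 0.09 (adjusted p 0.0965). It passed the test without the LPS replicate 4. Of 18 vascular growth signalling genes, which include Tek, none was called (median difference -0.02, 9 above 0 and 9 below). Angpt2, of the same list, was lower with no overlap, with a highest uninjured LPS/HI array of 6.74 and a lowest LPS array of 6.76.

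No member passed in the hypoxia, immediate early, heat shock, clock, cell cycle and cholesterol lists. Only 0.135% of all genes were called, a share at which lists this short would seldom hold one. An effect of the HI procedure or of the time of removal was not tested. None of 21 hypoxia response genes was called (median difference -0.08), with 16 below 0 and 5 above. Of the 21, 2 were lower with no overlap (beside 0.742% of all genes). Ddit4 and Adm, a pair of hypoxia-induced genes, had differences of -0.30 ± 0.07 and -0.32 ± 0.09 (adjusted p 0.184 and 0.37). Ddit4 is also in the glucocorticoid list. None of 23 immediate early genes (median 0.07), 14 heat shock genes (median -0.02) or 18 circadian clock genes (median 0.02) was called. Nr1d1, a clock repressor, had 10.26, 10.51, 10.49, 10.31 and 10.69 in the uninjured LPS/HI arrays, against 10.27, 10.12, 10.25, 10.22 and 10.36 in the LPS arrays, and the groups overlapped. None of 26 cell cycle genes (median 0.01) or 19 cholesterol synthesis genes (median -0.11) was called, though 18 of the 19 had a difference below 0. In the peptide arm, 1 hypoxia gene was called lower (beside 0.441% of all genes). There, 1 immediate early gene was called higher (beside 0.196%), and 20 of the 23 lay above 0 and 3 below (median 0.24). No cell cycle or cholesterol gene was called in that arm. Of the 26 cell cycle genes, 5 lay above 0 and 21 below there (median -0.17). Of the 19 cholesterol genes, 8 lay above 0 and 11 below (median -0.06).

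The peptide arm repeated the comparison in 10 arrays that share none with the one above: the uninjured LPS/HI hemisphere with IDR-1018 against LPS with IDR-1018. There, 127 genes were called (0.637%), 39 of them higher (0.196%) and 88 lower (0.441%). Of the 22 genes that fell without the peptide, 17 also fell in the peptide arm, which is 77.3% of the 22 and 19.3% of the 88, and all 22 had the same sign. Of the 5 genes that rose, 3 also rose in the peptide arm (60% of the 5 and 7.69% of the 39), and all 5 had the same sign. Iigp1 had a difference of -2.17 ± 0.27 in the peptide arm (adjusted p 0.00327). Pld4 had 0.86 ± 0.13 (adjusted p 0.00782) and Adgre5 0.80 ± 0.09 (adjusted p 0.00299). Lgals3bp and Ctss did not pass there, with differences of 0.29 ± 0.15 (adjusted p 0.425) and 0.39 ± 0.12 (adjusted p 0.195).

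All 7 interferon GTPases fell in the peptide arm, with a median difference of -1.32. So did 8 of the 26 antiviral genes, with a median of -0.44. Of all genes, 0.441% were called lower there. Ifit1 had a difference of -1.41 ± 0.24 in the peptide arm (adjusted p 0.0133) and of -0.56 ± 0.13 without the peptide. Trim30a had -1.07 ± 0.15 (adjusted p 0.00417) and -0.31 ± 0.15 in the same order. Lcn2 also fell in the peptide arm, with a difference of -1.93 ± 0.19 (adjusted p 0.00109). Osmr, a receptor subunit for oncostatin M, fell there with a difference of -1.02 ± 0.11 (adjusted p 0.00134). Tek and Cd180 rose there, by 0.82 ± 0.11 (adjusted p 0.00409) and 0.65 ± 0.12 (adjusted p 0.0287). The test of the difference between the arms called 0 genes in limma, with 1039 at an unadjusted p under 0.05 and a median 95% half-width of 0.235. For Trim30a this difference was -0.76 ± 0.23 (adjusted p 0.798), and for Ifit1 it was -0.85 ± 0.30 (adjusted p 0.798). Xist was high in 3 of 5 uninjured LPS/HI arrays with the peptide and in 2 of 5 arrays of LPS with the peptide, so the sexes were more mixed than in the arm without it.

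**Figure D4:**
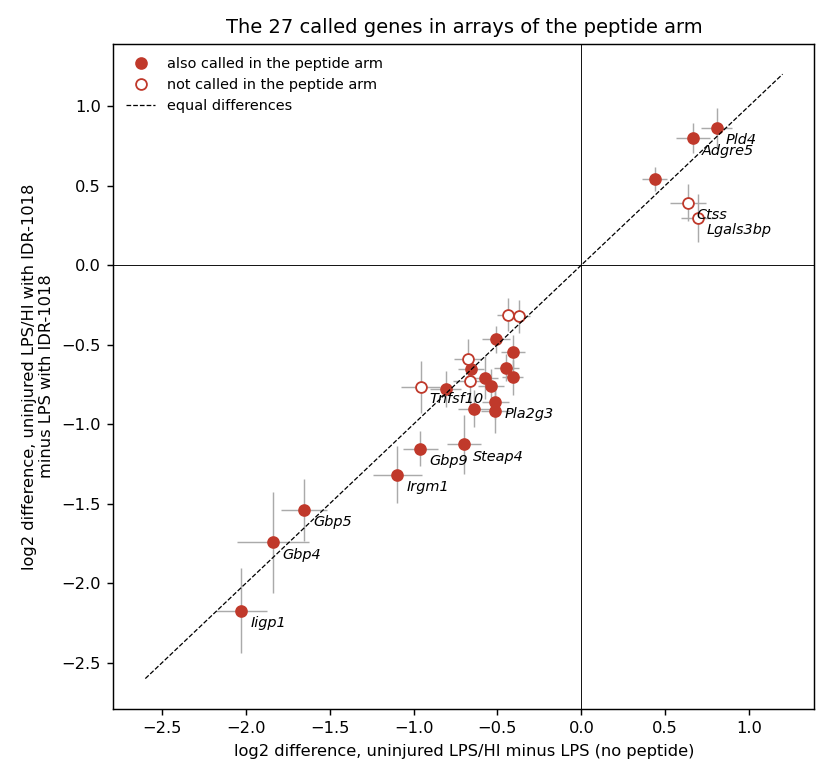
Difference (log2, ± SE) of the 27 called genes without the peptide (x axis, uninjured LPS/HI hemisphere minus LPS) against the difference in the peptide arm (y axis, uninjured LPS/HI hemisphere with IDR-1018 minus LPS with IDR-1018), 5 arrays per group. All 27 have the same sign in both arms, and the 20 filled points were called in both.

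Genes that respond to LPS at 6 h were also taken from arrays outside the comparison, as those called between LPS with IDR-1018 and IDR-1018 alone. Xist had a median of 5.01 (4.93 to 11.95) in the IDR-1018 arrays and of 5.54 (5.21 to 12.23) in LPS with IDR-1018. Of all genes 1.47% were called between these 2 groups, with 232 raised (1.16%) and 62 lowered (0.311%). Of the 232 raised genes, 20 were called lower in the uninjured LPS/HI hemisphere than in LPS (8.62% of the 232 and 90.9% of the 22), and 1, Lgals3bp, was called higher. The median difference of the 232 genes was -0.14, and 182 of them lay below 0. The genes that fell outside this set were Mir122 and Chil1. Of the 62 lowered genes, 1, Adgre5, was called higher and none lower, with a median difference of 0.10 and 51 above 0.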

How the data were processed

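RNA from mouse brain was hybridised to Affymetrix arrays. The deposited values are log2 signals that the authors made with RMA from the affy package, per the submitters' processing notes, with versions not given in the sources used here. RMA normalises arrays to each other, so a shift of all genes is not visible. The array's annotation gave 1 symbol to 21640 of 34760 probe sets, several to 1321 and none to 11799. The probe set with the highest mean over the 40 arrays stood for each of 19937 genes (954 had several), with no filter on signal. Array medians were 6.99 to 7.13.

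Groups were compared with limma 3.58.1 (lmFit, eBayes) in R 4.3.3, with Benjamini-Hochberg adjustment over all genes and calls at 0.05. The procedure was tested on simulated data. Errors of differences are standard errors. The genes named were up to 15 called in each direction with no overlap between groups, and up to 4 called members of each list, or 2 by p where none was called. Clone names, Xist, Y-linked genes, pseudogenes and globins were passed over, and exceptions are marked. Members, lists and tests were chosen with earlier results of these data known. Alternatives covered scaling, filters, probe sets, covariates, 1 fit over all groups, a replicate block and leaving out arrays. The replicate numbers did not pair the samples.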

Additional observations from a re-analysis of the deposited data

Results flagged for a closer look

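Among 100 named genes in 2 groups each, 200 sets of 5 arrays were examined for an array far from the rest, and 12 had one, where chance gives about 1 in 20. In the uninjured LPS/HI hemisphere, Parp14 had its lowest value, 6.61, in replicate 5, and Zic1, a cerebellar transcription factor, had its lowest, 9.48, in replicate 4. Replicate 2 of that group stood apart for 3 genes, with the highest value of Trp53inp1 (9.32), the lowest of Aif1 (6.21) and the highest of the serotonin transporter Slc6a4 (7.79). In LPS, replicate 3 had the lowest value of Tgm2 (7.97) and of Parp14 (6.94). LPS replicate 1 had the highest values of Cxcl11 (8.16) and Il4ra (8.51), and the lowest of Ly86 (9.68) and of Penk (11.2), a striatal neuropeptide. LPS replicate 2 had the highest value of Atf3 (7.02). Tgm2 and Parp14 were called with these arrays included.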

How the results depend on the processing

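Of the 27 called genes, 11 were called in every alternative that tested them and 16 were lost in at least 1, and none changed sign. Pld4, Irgm1 and Tgm2 were tested in 19 alternatives, and Iigp1, Gbp4, Gbp5, Gbp9, Tnfsf10, Tekt4, Scgb3a1 and Slfn5 in 18, since they lie below the median level. The counts below are all called, higher and lower genes, beside 27, 5 and 22. A fit of all 8 groups together called 69, 26 and 43 and kept 23 of the 27. Testing only genes at or above the median level called 7, 3 and 4, since 9 of the 27 lie there. With the Xist level as a covariate the counts were 13, 1 and 12. With the mean level of ribosomal protein genes as a covariate, chosen after seeing the data, they were 57, 16 and 41, with all 27 kept. With a replicate block they were 18, 2 and 16, although the numbers only name the arrays: the correlations of same-numbered arrays ran from -0.48 to 0.404, and 1 of 5 was best with its own number. Changes over 1.5-fold numbered 16, 4 and 12. Leaving out 1 array gave 15 to 27, 2 to 7 and 13 to 23. The count of higher genes was 2 without the uninjured LPS/HI replicate 4, the LPS replicate 2 or the LPS replicate 5, and 3 without the uninjured LPS/HI replicates 1 or 5 or the LPS replicate 3. In the peptide arm the counts were 127, 39 and 88, beside 58, 18 and 40 at or above the median level, 59 to 160, 10 to 89 and 49 to 128 with 1 array left out, 13 higher genes with a replicate block and 25 with the ribosomal covariate. The difference between arms called 0 genes in each alternative run. Of genes raised over 1.5-fold by LPS with IDR-1018, 17.1% were called lower. Gene-level calls limited by 5 arrays per group may miss differences well beyond the half-width given, which is not adjusted for the number of genes. In the main comparison 848 genes had an unadjusted limma p under 0.05 and 27 were called. Differences as large as that of Lcn2 (-1.43) were not called. Probe signal over background was not in the values used here.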
